A study of Forsythia suspensa with 2 samples.

Results

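The shared core of the flower and leaf transcriptomes of Forsythia suspensa, a medicinal shrub of the olive family, was described through the transcripts that were abundant at like levels in both tissues. A transcript belonged to this shared set when it reached at least 200 CPM in flower and in leaf and when the larger CPM was under 2 times the smaller. CPM is the expected count divided by the library total and multiplied by 1000000, with no further scaling unless stated. The rule found 158 of 81913 assembled transcripts. Flower and leaf were sampled outdoors from plants aged 2 years, with no treatment, and each tissue is represented by 1 library of oligo(dT)-selected RNA made with a strand-specific kit. The labels do not say how many plants went into a library, nor if 1 plant gave both tissues. Expected counts, RSEM's estimates of fragments per transcript, summed to 7442016 in flower and 7234013 in leaf. With 1 library per tissue there was no replicate check, no test across samples was made, and no interval below covers variation between plants. Intervals of levels, of ratios and of shares of counts cover counting error only, and those of medians and of shares of transcripts are binomial over transcripts, which are not independent samples.

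In plants, as in other organisms, some genes are transcribed in every organ because their products keep any cell running, such as ribosomal proteins, translation factors, ubiquitin, actin and tubulin. Organs differ in part in what they add to that core, such as the photosynthetic machinery of leaves or the pigments and scents of petals. Transcripts at steady levels across organs are commonly used as reference genes for scaling. In bulk tissue a level is an average over all cell types present, so that cell composition and RNA per cell cannot be told apart. The identifiers in the files are those of an assembly and are not paired with gene names, so the functions of the 158 transcripts were not examined here, and neither the labelled tissues nor a housekeeping role could be checked against marker genes.

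The shared set took nearly the same part of each library. It held 526477 flower counts, which is 7.07% of that library (exact 95% interval 7.06 to 7.09), and 521355 leaf counts, which is 7.21% (7.19 to 7.23). These 158 transcripts were 0.193% of the assembly. By TPM, a unit that divides each count by transcript length before scaling to a fixed total, the set took 4.51% of the flower total and 4.59% of the leaf total. The like shares follow in part from the rule, which bounds each ratio, and are given as a description.

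Most of the abundant RNA lay outside this shared core. A level of 200 CPM was reached by 633 transcripts in flower, by 643 in leaf, by 1001 in at least 1 library and by 275 in both. The 158 transcripts were thus 15.8% of those abundant in at least 1 tissue and 57.5% of those abundant in both. A further 117 transcripts were abundant in both libraries but 2-fold or more apart, and 726 were abundant in 1 library only. The 117 transcripts were unevenly divided, with 81 higher in leaf and 36 higher in flower. They made up 11.5% of all counts in flower and 19.2% in leaf, so that among transcripts abundant in both tissues the larger part of the counts was carried by transcripts at unlike levels. As background, 48.1% of the 44042 transcripts with at least 1 CPM in at least 1 library were under 2-fold apart, and 26.4% of the 1001 transcripts with at least 200 CPM in at least 1 library were.

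**Figure D1:**
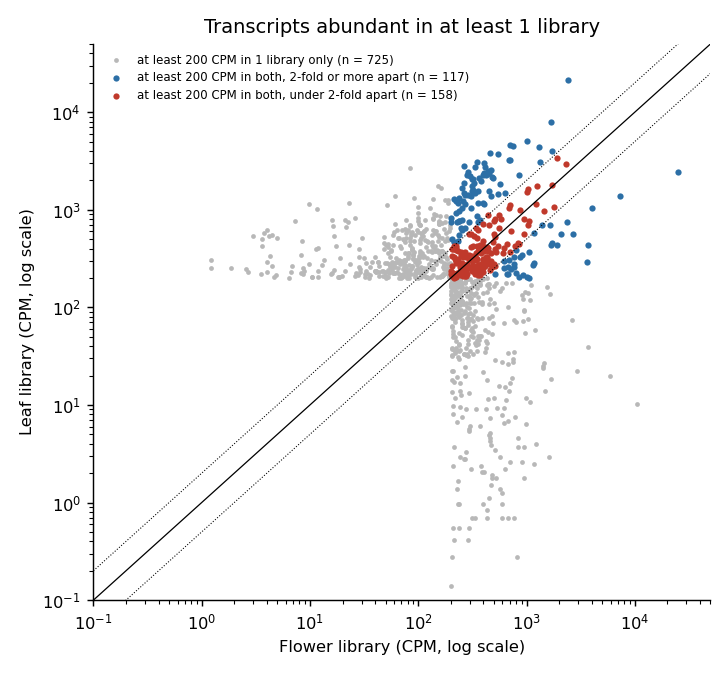
Flower CPM (horizontal, log scale) against leaf CPM (vertical, log scale) for transcripts of at least 200 CPM in at least 1 library. Red points are the 158 transcripts of the shared set between the dotted 2-fold lines, blue points the 117 transcripts abundant in both but 2-fold or more apart, and grey points those abundant in 1 library only, of which 1 with no count in the other library is not drawn. The blue points lie mostly above the diagonal, on the leaf side.

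Within the shared set the levels spanned a modest range of counts but a wide range per unit of length. In flower the 158 transcripts ran from 200.8 CPM to 2301 CPM with a median of 353 CPM, and in leaf from 202 CPM to 3379 CPM with a median of 327 CPM. The highest level was 11.5 times the lowest in flower and 16.7 times the lowest in leaf. Per length, the levels ran from 28.4 to 2792 TPM in flower and from 21.5 to 2817 TPM in leaf, a span of 98.4-fold and 131-fold. The longest transcript of the set, of 12050 bases, had 356 CPM in flower and 273 CPM in leaf, which came to only 28.4 TPM and 22.2 TPM. The shortest, of 372 bases, had 399 CPM in flower and 253 CPM in leaf, which came to 1868 TPM and 1251 TPM. These transcripts lay close together by counts and far apart per length. Counts were spread fairly evenly over the set, since the 10 largest took 20.8% of its flower counts and 24.1% of its leaf counts, and 44 transcripts in flower and 39 in leaf were needed to reach 50% of them.

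At the head of the set, as among all transcripts of that abundance, levels in leaf exceeded those in flower more often than the reverse. The transcript with the largest mean, TR20808|c0_g1_i1|c0_g1_i1, is 1696 bases long and had 1915 CPM in flower (14248 counts) and 3379 CPM in leaf (24442 counts). It was higher in leaf, at 1.76 times the flower level (1.73 to 1.80), and ranked 17th of all transcripts in flower and 10th in leaf. It was the only transcript of the set among the 10 most abundant of either library. The next, TR29175|c0_g1_i1|c0_g1_i1, is 2931 bases long and had 2301 CPM in flower (17124 counts) and 2927 CPM in leaf (21176 counts). The leaf level was 1.27 times the flower level (1.25 to 1.30), a smaller difference than in the transcript before it, and its ranks of 14 and 16 were almost the same.

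Among transcripts of the set that were higher in flower, TR30816|c0_g1_i1|c0_g1_i1 had the largest mean. It is 2562 bases long and had 1779 CPM in flower (13238 counts) and 1067 CPM in leaf (7717 counts), a flower level 1.67 times the leaf level. TR34590|c0_g1_i1|c0_g1_i1, of 2260 bases, had 1437 CPM in flower (10694 counts) and 968 CPM in leaf (7003 counts), 1.48 times the leaf level. Both stood lower in the order of the leaf library, the first at rank 83 against 18 in flower and the second at rank 92 against 30. Between these pairs lay a transcript of 791 bases with nearly equal levels. It had 1706 CPM in flower and 1792 CPM in leaf, and per length it was the most abundant of the set in leaf at 2817 TPM, with 2600 TPM in flower. Of the 9 transcripts of the set with a mean of at least 1000 CPM, 6 were higher in leaf and 3 in flower. All 69 transcripts of the assembly at that level had a median log2 ratio of flower over leaf CPM of -1.78. The lean to leaf was therefore not particular to the set.

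Over all 158 transcripts the direction was close to balanced by library totals, with 87 higher in flower and 71 in leaf. Scaled on the transcripts of 10 to 100 CPM described under scaling, these numbers were 61 and 97. Of the 117 transcripts abundant in both but 2-fold or more apart, 36 were higher in flower and 81 in leaf. The rule bounds the ratios evenly around the library totals, which enters into the balance of the set. The median log2 ratio of flower over leaf CPM over the 158 transcripts was 0.06 (binomial 95% interval of the median over transcripts, -0.05 to 0.14). The middle 50% of their ratios lay between -0.35 and 0.40. The larger level was under 1.1 times the smaller in 36 transcripts, under 1.2 times in 60 and under 1.5 times in 110, and was from 1.5 times to under 2 times in 48. Of the 275 transcripts abundant in both libraries these counts are 13.1%, 21.8% and 40%. The closest pair of levels belonged to a transcript of 3024 bases, with 210.8 CPM in flower and 209.98 CPM in leaf.

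The depth of the libraries gave each ratio a narrow counting interval. Each transcript of the set had at least 1494 counts in flower and 1462 in leaf. At that depth the upper end of the exact 95% interval of a ratio lay a median of 5.93% above the ratio, and 7.44% at most. The interval included 1 for 22 of the 158 transcripts, and excluded it for 74 that were higher in flower and 62 that were higher in leaf. Of the 1001 transcripts abundant in at least 1 library the interval included 1 for 2.5%, and of the 275 abundant in both for 8%. The rule used the same ratios, so nothing is read from these shares. Variation between plants was not measured, and it is not covered by these intervals.

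**Figure D2:**
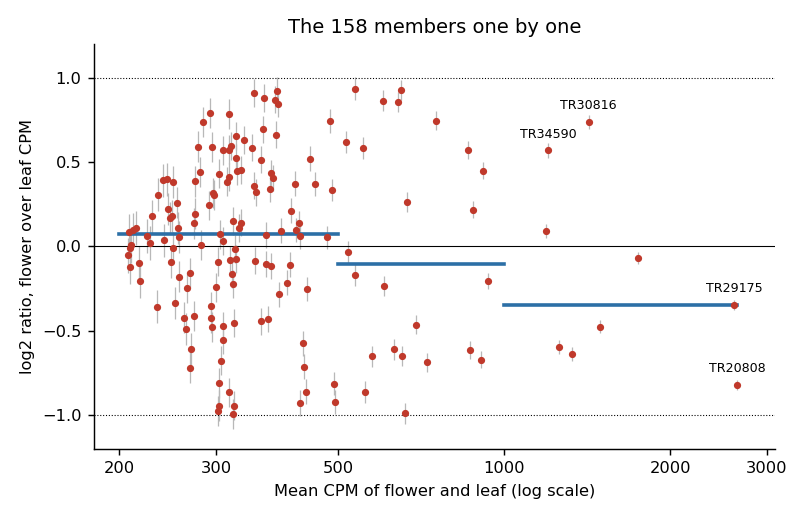
The log2 ratio of flower over leaf CPM (vertical) against the mean CPM of both libraries (horizontal, log scale) for each of the 158 transcripts, with grey bars for the exact 95% counting interval and the 4 named transcripts labelled by the first part of their identifiers. Dotted lines mark the 2-fold limit of the rule, and blue lines the median of the transcripts with a mean of 200 to 500 CPM (0.07), 500 to 1000 CPM (-0.10) and at least 1000 CPM (-0.35). Near 200 CPM the minimum in both libraries narrows the ratios that the rule allows.

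The limits of the rule cut through a continuous range. Just inside the fold limit on the flower side was a transcript of 2121 bases with 704 CPM in flower and 368 CPM in leaf, 1.91 times the leaf level. Just outside it was one of 1985 bases with 1394 CPM and 691 CPM, 2.02 times the leaf level. On the leaf side, a transcript with 215.5 CPM in flower and 429 CPM in leaf was inside at 1.99 times the flower level, and one with 234 CPM and 477 CPM was outside at 2.04 times. At the minimum, a transcript with 200.8 CPM in flower and 218 CPM in leaf was inside, and one with 206 CPM in flower and 198 CPM in leaf was outside.

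The share of transcripts at like levels was lower among the most abundant than in the middle of the abundance range. By the mean CPM of both libraries, 61.6% of 11423 transcripts at 10 to 50 CPM were under 2-fold apart (60.7 to 62.5) and 59.96% of 2198 at 50 to 100 CPM (57.9 to 62.02). The share was 50.8% of 972 at 100 to 200 CPM (47.6 to 54.0) and 38.1% of 459 at 200 to 500 CPM (33.7 to 42.7). It was 21.2% of 113 at 500 to 1000 CPM (14.1 to 29.9) and 13.04% of 69 at 1000 CPM or more (6.14 to 23.3). Over these bins the share thus went down as abundance went up, although at 1 to 5 CPM, where counts are few, it was again lower at 46.6%. A mean is raised by a high level in 1 tissue alone, so other summaries of abundance were added after seeing the data. By the geometric mean the shares were 66.2% at 50 to 100 CPM, 49.1% at 200 to 500 CPM and 21.95% at 1000 CPM or more. With a minimum in both libraries in place of a mean, they were 71.5% at 50 CPM, 66.05% at 100 CPM, 57.5% at 200 CPM, 50% at 500 CPM and 47.1% at 1000 CPM, the last on 17 transcripts with an interval of 23.0 to 72.2. The order from 50 CPM upwards was the same by all of these summaries, and the decline was least steep with a minimum in both. With a minimum, each set contains those at higher minima, whereas the bins are separate, so the steepness cannot be compared directly.

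**Figure D3:**
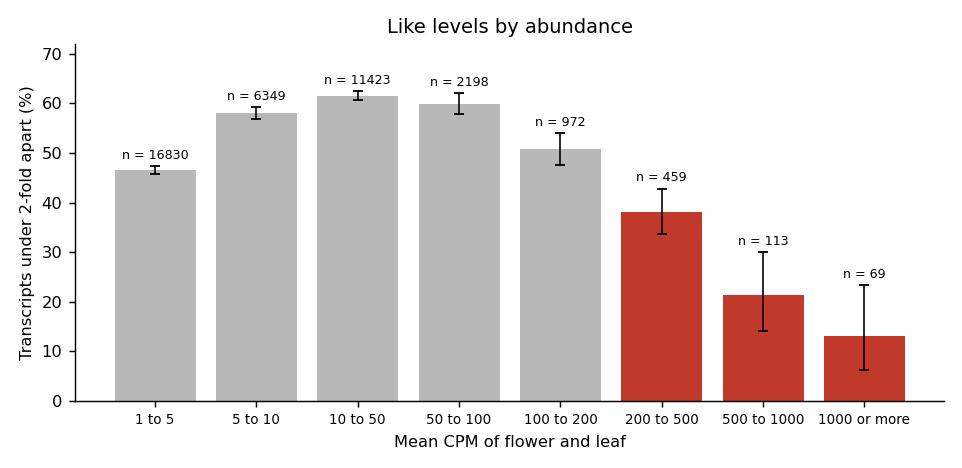
Share of transcripts under 2-fold apart (vertical, percent) by the mean CPM of flower and leaf (horizontal), with exact 95% binomial intervals over transcripts, which are not independent samples, and the number of transcripts above each bar. Red bars are the bins that hold transcripts of the shared set. The bars go from 61.6% at 10 to 50 CPM to 13.04% at 1000 CPM or more.

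The shared set was a minor part of the top of each library, as it was of all transcripts of at least 200 CPM. At that level it made up 158 of 633 transcripts in flower and 158 of 643 in leaf. It supplied 45 of the 200 most abundant transcripts in flower and 31 of those in leaf, and 18 and 14 of the 100 most abundant. Of the 10 most abundant it held none in flower (0 of 10) and 1 in leaf. The libraries had 21 of their 100 most abundant transcripts in common, and 10 of these 21 belonged to the shared set. Of the 55 transcripts common to the top 200 of each library, 24 belonged to it, and of the 214 common to the top 500, 116 did. Among all 275 transcripts abundant in both libraries, 57.5% did. The other 11 of the 21 were at high levels in both tissues yet 2-fold or more apart. The most abundant flower transcript, with 25204 CPM in flower and 2417 CPM in leaf, and the most abundant leaf transcript, with 2395 CPM and 21222 CPM, were among them.

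The place of the shared transcripts in the order of abundance was compared between the tissues. An equal rank was held by 0 of 158. No such share is given for other transcripts, so nothing is read from it. Ranks count from 1 for the largest CPM of a library. The 158 transcripts ranked from 14 to 630 in flower, with a median of 289, and from 10 to 634 in leaf, with a median of 346. Their median rank change, without regard to direction, was 102.5 places (binomial interval of the median, 72 to 123), and the middle 50% moved by 45.5 to 164.5 places. Only 13 moved by at most 10 places, while 78 moved by at most 100 and 131 by at most 200. The smallest change was 1 place, in a transcript of 1194 bases at rank 333 in flower and 334 in leaf. The largest was 339 places, in a transcript of 1642 bases with 204 CPM in flower (rank 614) and 401 CPM in leaf (rank 275). For comparison, the 117 transcripts abundant in both but 2-fold or more apart moved by a median of 261 places. Rank and ratio come from the same counts, so this difference follows in part from the rule.

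By rank the set sat higher in flower than in leaf, more so than by level. Of the 158 transcripts, 102 held a better rank in flower and 56 in leaf, against 87 and 71 by CPM. The same rank stood for a higher level in leaf, at 867 CPM against 714 CPM in flower for rank 100, 374 CPM against 344 CPM for rank 300, and 210 CPM against 206 CPM for rank 600. A transcript at an equal CPM in both libraries therefore had the better rank in flower in that range. Across the 158 transcripts, flower and leaf CPM had a Spearman rho of 0.60 and flower and leaf TPM a rho of 0.86. These are descriptions over transcripts of the same 2 libraries, and the rule and, for TPM, the shared lengths enter into them.

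The transcripts of the shared set were long. Their median length was 2079.5 bases (binomial interval of the median, 1876 to 2264), against 1795 bases (1600 to 1984) for the 117 transcripts abundant in both but apart, 1585.5 bases (1521 to 1688) for the 726 abundant in 1 library only, and 934 bases for all 44042 transcripts with at least 1 CPM in at least 1 library. More than 2000 bases were reached by 86 of the 158 (54.4%), by 42 of the 117 (35.9%) and by 30.6% of the 726. Only 19 of the 158 were 1000 bases or shorter. Length was not part of the rule, but a count grows with the length of a transcript, so a minimum in CPM admits long transcripts more readily.

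The order by length turned when levels were taken per length. With TPM in place of CPM in the rule, 108 transcripts qualified and their median length was 824 bases, shorter than the 980 bases of the 94 transcripts that had at least 200 TPM in both but were 2-fold or more apart. The lists of 158 and 108 transcripts had 55 in common, which is 34.8% of the first and 50.9% of the second. Transcripts found by CPM alone had a median of 2564 bases, and those found by TPM alone a median of 500 bases. The change of unit had little effect on the ratios of the 158 transcripts themselves. By TPM 155 of them were still under 2-fold apart, the median log2 ratio was 0.02, and 4 changed the tissue in which they were higher. At most 3 of the 158 therefore missed the TPM list through the fold limit, and the others through the minimum level.

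**Figure D4:**
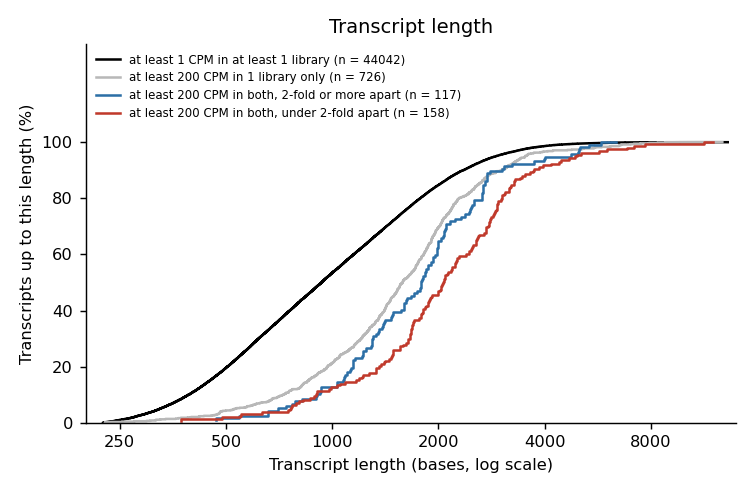
Cumulative share of transcripts (vertical, percent) up to a given length (horizontal, bases, log scale) for the 158 transcripts of the shared set in red, the 117 abundant in both but 2-fold or more apart in blue, the 726 abundant in 1 library only in grey and all 44042 with at least 1 CPM in at least 1 library in black. The red line lies farthest to the right over most of the range, with a median of 2079.5 bases.

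Within the set, length classes had like levels by count and like ratios. Transcripts of 1000 bases or less had a median of the mean CPM of 322, those up to 2000 bases 325, those up to 3000 bases 367 and those above 3000 bases 316. The median log2 ratio of flower over leaf CPM was 0.14 in the shortest of these classes (19 transcripts), -0.01 in the next (53), 0.07 in the third (52) and 0.06 in the longest (34). Per length the classes separated, with a median of 551 TPM in flower and 532 TPM in leaf in the shortest class and 75.9 TPM and 71.3 TPM in the longest. That separation is what division of like counts by unlike lengths gives.

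Some transcripts of the shared set had alternative forms in the assembly. The identifiers placed the 158 transcripts in 144 assembly loci, a locus being a group of transcripts that the assembler kept together. In 110 cases (69.6%) the transcript was alone in its locus, and in 48 (30.4%) it shared the locus with up to 4 others. The share with other transcripts in the locus was 17.9% among the 117 abundant but apart, 21.6% among the 726 abundant in 1 library only, and 42.0% among all transcripts of at least 1 CPM in at least 1 library. The 48 transcripts came from 34 loci, and 9 of these loci held 2 or more transcripts of the set, 23 in all. In 5 of the 9 loci all such transcripts were higher in the same tissue, and in 4 they were not. Fragments of similar forms can be assigned to either, so the level of a single form in such a locus is less certain than that of a transcript alone in its locus.

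By library totals the direction differed between transcripts with and without other forms. Among the 110 alone in their locus, 54 were higher in flower and 56 in leaf, with a median log2 ratio of -0.01. Among the 48 with other forms, 33 were higher in flower and 15 in leaf, with a median of 0.21. The small excess of flower-higher transcripts by library totals thus lay in the loci with several forms. The 4 shared transcripts of 1 locus were all among the 33. Scaled on the transcripts of 10 to 100 CPM, the whole set had 61 higher in flower and 97 in leaf. The direction of all transcripts of like abundance with and without other forms is not given here, so the split is not read as particular to the set. No test was made, since these transcripts share their loci and the members were chosen on the ratio.

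When the counts of all forms of a locus were summed, 33 of the 34 loci were under 2-fold apart, and the sums ran from a log2 ratio of -0.88 to 1.26. The sums contain the shared transcripts themselves, whose ratios the rule had already bounded, so nothing is read from this count. The 34 loci held 35 further transcripts outside the set, with a median of 99.97 CPM in flower and 79.2 CPM in leaf. Of the 34 of these with at least 1 CPM in at least 1 library, 25 were also under 2-fold apart (73.5%). At a mean of 10 to 500 CPM, 22 of 28 were, against 64.1% of all 7032 transcripts at that level in loci with several forms. Of the 23 with at least 50 CPM in at least 1 library, 15 were. Since fragments of similar forms can be assigned to either, these levels are not independent of those of the shared transcripts, and nothing is read from these counts.

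The part of a locus that the shared transcript took was also compared between the tissues. Among the 48 transcripts it was a median of 54.8% of the locus counts in flower and 59.2% in leaf, and it differed between the tissues by a median of 3.35 percentage points. In 13 it differed by more than 10 points. The rule bounds the ratio of each shared transcript, and 23 of the 48 lie in a locus with another of the set. Small differences thus follow in part from the rule. No such difference is given here for transcripts outside the set, so the median is a description only. The largest difference was in a locus of 2 forms. Its form of 2928 bases had 307 CPM in flower and 418 CPM in leaf, and so belonged to the shared set. The other form, of 1884 bases, had 324 CPM in flower and 32.9 CPM in leaf, 9.84 times the leaf level. The shared form took 48.7% of the locus in flower and 92.7% in leaf. A form at like levels could therefore stand beside a form of the same locus at very unlike levels.

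Used as a reference for scaling, the shared set gave a small factor. A scaling factor adjusts each library total, and here it was chosen so that the median log2 ratio of the 158 transcripts became 0. The factor of flower over leaf was 0.06 on the log2 scale, which is 1.04-fold. TMM, a trimmed mean of ratios over transcripts, gave 0.05, DESeq2 size factors, a median of ratios over all transcripts counted in both libraries, gave -0.04, and library totals are 0 by definition. The rule bounds each ratio to between -1 and 1 around the library totals, so the factor taken from this set is not independent of the library totals. The binomial interval of its median, -0.05 to 0.14, takes in the TMM, DESeq2 and library-total values alike. Nothing is therefore read from its nearness to TMM.

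The reference value depended on the abundance from which it was taken. Within the set the median log2 ratio was 0.07 for the 125 transcripts with a mean of 200 to 500 CPM, -0.10 for the 24 at 500 to 1000 CPM and -0.35 for the 9 at 1000 CPM or more. Without the fold limit, the 275 transcripts abundant in both libraries had a median of -0.12. Among all transcripts at 10 to 50 CPM and at 50 to 100 CPM the median was 0.20 and 0.21. Among all transcripts it was 0.02 at 200 to 500 CPM, -0.61 at 500 to 1000 CPM and -1.78 at 1000 CPM or more. Over all transcripts the highest levels thus leaned to leaf and the middle levels to flower. Within the set the lean to leaf above 500 CPM was smaller, and the rule bounds each ratio there. Transcripts with a mean of 10 to 100 CPM, a reference chosen after seeing the data, gave a factor of 0.19, or 1.14-fold. The choice of scaling therefore moved all log2 ratios by up to 0.23 between the lowest factor and the highest.

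Over that range the number of transcripts called apart changed more on the leaf side than on the flower side. The transcripts compared were not the same throughout. With DESeq2 size factors, the lowest factor, 7034 of 44042 transcripts (15.97%) leaned to flower by 4-fold or more. The reverse held for 4140 (9.40%), and the flower share of those apart was 62.9%. Scaled on the shared set, 6859 of 44042 transcripts (15.6%) had a flower level of 4 or more times the leaf level and 4353 (9.88%) the reverse, so that 61.2% of those apart leaned to flower. Scaled on the transcripts of 10 to 100 CPM, 6606 of 45230 (14.6%) leaned to flower by 4-fold or more and 5083 (11.2%) to leaf, and the flower share was 56.5%. That reference raised leaf CPM, and the 1 CPM minimum was applied after scaling. The larger number compared, 45230 in place of 44042, thus took in transcripts that newly reached 1 CPM in leaf. How many of the added leaf calls came from them was not tested. The flower share was lower with that reference and its larger set, and remained above 50% with each scaling. It was lower still, at 53.6%, when scaled on the shared set with a minimum of 5 CPM for the transcripts compared, where 2919 leaned to flower and 2525 to leaf. The shared transcripts themselves stayed under 2-fold apart in 155 of 158 cases with TMM, in 153 when centred on their own median and in 145 when scaled on the transcripts of 10 to 100 CPM. With that last scaling 61 were higher in flower and 97 in leaf, so the direction of the majority turned with the reference.

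**Figure D5:**
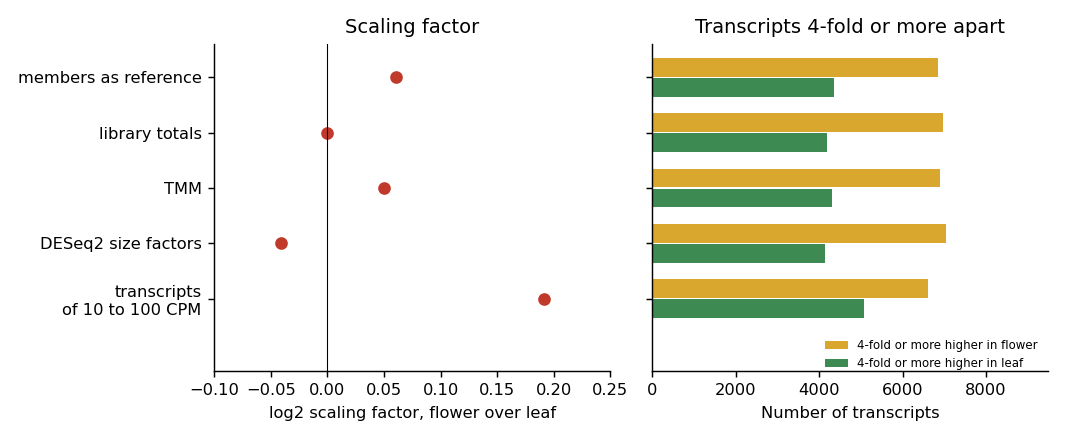
Left, the log2 scaling factor of flower over leaf (horizontal) by 5 ways of scaling, from -0.04 with DESeq2 size factors to 0.19 with the transcripts of 10 to 100 CPM. Right, how many transcripts were 4-fold or more apart under each scaling, with the higher level in flower (yellow) or leaf (green); yellow is the longer bar in every pair.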

How the data were processed

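RNA of 1 flower and 1 leaf sample was sequenced. The submitters' processing notes name Trimmomatic, a read trimmer, and RSEM, an abundance estimator. Versions, aligner and reference sequence set are not given there. Per the file headers, the authors deposited for each transcript an expected count (the estimated number of fragments, all whole numbers here, so rounding altered none), a TPM, an FPKM, and its length and effective length. The series-wide FPKM table was not used.

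Members and alternatives were chosen with earlier results of these data known. CPM used library totals. TMM factors and log ratios with a prior count of 2 came from edgeR 4.0.16, and size factors from DESeq2 1.42.0, in R 4.3.3. Transcripts compared for 4-fold differences had at least 1 CPM in at least 1 library after scaling. Loci were read from the identifiers, which was decided with the data known. Intervals are exact (Clopper-Pearson, or binomial order statistics for medians). No source used here mentions removal of PCR duplicates. Per count, a flower transcript gains 0.134 CPM and a leaf transcript 0.138 CPM. The scaling code was tested on simulated data in which most transcripts were left unchanged, which cannot show which reference suits these data. Named were the 2 most abundant members in each direction. Python 3.11.15, numpy 2.4.6, scipy 1.17.1, pandas 2.3.3 and matplotlib 3.10.9 were used. Alternatives were other units, minimum levels, fold limits, scalings, prior counts, summaries and assembly loci.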

Additional observations from a re-analysis of the deposited data

How the results depend on the processing

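No paired analysis was possible because each tissue has 1 library, and no replicate could be left out. The number of shared transcripts (158) was 535 with a minimum of 100 CPM and 24 with 500 CPM, and from 108 to 211 under the other alternatives. Their share of flower counts (7.07%) and leaf counts (7.21%) was 13.2% and 12.8% with 100 CPM, 2.43% and 2.78% with 500 CPM, 4.55% and 4.43% with a fold limit of 1.5, 5.62% and 5.49% without the 10 most abundant, and 5.39% and 5.15% by TPM. The median length (2079.5 bases) was 824 by TPM, 821 by FPKM and 2572 with 500 CPM. The percentage of transcripts abundant in both that belonged to the set (57.5%) was 66.05% with 100 CPM, 50% with 500 CPM and 40% with a fold limit of 1.5. The median rank change (102.5) was 201 with 100 CPM and 34 with 500 CPM. The median log2 ratio (0.06) was -0.027 from summed counts, -0.22 with 500 CPM, -0.12 with no fold limit, -0.0095 for transcripts alone in their locus and 0.19 for the transcripts of 10 to 100 CPM that were added after seeing the data, so its sign depended on these choices. The cause was not tested. With a minimum of 5 CPM for the transcripts compared, 24501 in place of 44042 were compared, and those 4-fold apart numbered 2919 (flower) and 2525 (leaf) in place of 6859 and 4353. With a prior count of 0.5 they numbered 7537 (flower) and 5347 (leaf). These 4-fold numbers take in transcripts near 1 CPM, where counts are few. Depth limits the levels of the shared transcripts little, since each had at least 1462 counts in a library. The lack of replicates limits every comparison.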
